A study of Mus musculus with 9 samples.

Results

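Transcripts of p53 and of 9 of its direct target genes were examined in mouse embryonic fibroblasts (MEFs) that lack histone H3 lysine 9 (H3K9) methyltransferases. The 10 genes are Trp53, Cdkn1a, Mdm2, Ccng1, Phlda3, Zmat3, Sesn2, Eda2r, Bbc3 and Bax, and they were chosen by name among the 47937 genes of the count table. All 10 were present and all 10 passed the filter on low counts, which left 15540 genes for testing. No member was near the detection limit: the lowest value was 128 reads, for Eda2r in an S1S2 library.

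Total RNA was sequenced from 9 MEF libraries, 3 for each of 3 genotypes. WT cells had all H3K9 methyltransferases, S1S2 cells were knocked out for Suv39h1 and Suv39h2, and G9Gl cells were knocked out for G9a and Glp (gene symbols Ehmt2 and Ehmt1). As the study's methods describe, all 3 lines share an origin in a MEF clone with a conditional Eset1 allele and a tamoxifen-inducible Cre, which the labels do not describe as deleted here, and each mutant line is 1 CRISPR/Cas9 clone, picked because its targeted proteins were absent from western blots. Genotype and clone therefore cannot be told apart, and the replicates measure the spread between cultures of a line. The labels name only growth in standard medium. The methods add that, after gene disruption, an inducible Cre with a puromycin resistance gene was put back and the lines were held in puromycin, and whether puromycin or tamoxifen was present in the cultures sequenced here is not given in the sources used here.

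p53, the product of Trp53, is a transcription factor that is kept low in unstressed cells because Mdm2 binds it and marks it for degradation. DNA damage, oncogene activity and other stresses stabilise it, and it then binds paired copies of a short DNA element near genes for cell cycle arrest, cell death, DNA repair and metabolism. Mdm2 is itself one of these targets, which closes a negative feedback loop, and in cultured MEFs the Arf product of Cdkn2a restrains Mdm2. Because p53 is mainly controlled as a protein, Trp53 RNA and target RNA need not move together. Only RNA was analysed here, not p53 protein.

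The libraries held between 21319778 and 32157623 gene reads, and all 3 S1S2 libraries were smaller than any other. Of the targeted genes, Suv39h1 fell in S1S2 cells (log2 fold change, log2FC, of -1.36) and Ehmt2 and Ehmt1 fell in G9Gl cells (-1.20 and -1.04), whereas Suv39h2 RNA was higher in the libraries labelled S1S2 (0.70). The knockouts were chosen by protein, so these transcripts do not test the labels. Of 10 fibroblast markers, 9 were expressed and Lum was at or under 3 reads in every library; their summed level was 9803 to 11300 CPM (reads scaled to equal library size) in WT, 7370 to 7433 in S1S2 and 7719 to 8573 in G9Gl libraries. The markers did not move as 1: from WT to S1S2 means, Col1a2 went from 2395 to 395 and Col3a1 from 1527 to 190.1 CPM while Vim went from 1458 to 2399, and from WT to G9Gl means, Thy1 went from 4.98 to 38.3 and Dcn from 7.21 to 0.198 CPM. Neural markers summed to 296 to 379 CPM in WT, 799 to 807 in S1S2 and 499 to 603 in G9Gl libraries, nearly all of it Nes (means 311, 762 and 530.1 CPM), while Map2 was lower in S1S2 than in WT (0.244 and 0.814 CPM), Tubb3 was at 24.9, 39.1 and 21.7 CPM and Sox2 was at or under 3 reads everywhere. Muscle markers, with Myod1, Myog and Myf5 at or under 3 reads everywhere, summed to 2.09 to 2.71, 2.52 to 3.48 and 7.33 to 7.997 CPM. Endothelial markers summed to 0.123 to 0.193 CPM in WT, 1.55 to 1.70 in S1S2 and 0.790 to 2.35 in G9Gl libraries, with Kdr at means of 0.0215, 1.22 and 0.138 CPM and Cdh5 at 0, 0.0828 and 1.01 CPM, and blood markers to at most 4.90 CPM in any library. The part of these markers in the results was not tested. In bulk RNA, fewer cells of a type and less RNA per cell cannot be told apart. Levels below are CPM scaled by the TMM factors of edgeR, given for libraries 1, 2 and 3 of a genotype. A gene is said to have changed when its p in the edgeR quasi-likelihood test was 0.01 or less after Benjamini-Hochberg adjustment over all 15540 genes, and adjusted p-values are from that test unless another tool is named.

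The promoter sequences are shown first because the members were grouped by their link to p53. Windows of 300 bases, from 250 before to 50 after an annotated transcription start, were taken from RefSeq on GRCm38.p6. They were searched for exact matches to the p53 half-site, a motif of 10 bases that reads alike on both strands. Windows were given for 9 of the 10 members, all except Zmat3. At least 1 half-site lay in a window of 5 of these 9 genes (55.6%), against 2582 of 27025 genes with a window (9.55%). The members were picked as p53 targets, so a higher share than over all genes follows from that choice. It is no support for a part of p53 in their changes. In the lines that follow, each sequence is written 5′ to 3′ on the strand of its gene with the half-site in capitals. They are ordered by how far before the start the half-site begins, which is 201 bases for Bax (chr7:45467070-45467119, minus strand), 186 for Mdm2 (chr10:117710915-117710964, minus), 185 for Ccng1 (chr11:40755442-40755491, minus), 75 for Trp53 (chr11:69580264-69580313, plus), and 73 and 51 for Cdkn1a (chr17:29090886-29090957, plus). Another Cdkn1a window, at a start further downstream (chr17:29093519-29093818), held 0 half-sites.
Bax: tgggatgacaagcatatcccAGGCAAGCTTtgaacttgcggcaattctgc
Mdm2: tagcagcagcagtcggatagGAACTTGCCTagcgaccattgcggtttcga
Ccng1: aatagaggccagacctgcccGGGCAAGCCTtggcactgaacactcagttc
Trp53: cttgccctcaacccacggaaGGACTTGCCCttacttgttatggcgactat
Cdkn1a: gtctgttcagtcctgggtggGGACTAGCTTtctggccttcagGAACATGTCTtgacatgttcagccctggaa

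Cdkn1a was the only member with a pair of exact half-site matches in its window, 12 bases apart. The bases directly after its GAACATGTCT, tgacatgttc, fit the half-site motif except at the opening t, so the search left them out. These stretches adjoin with no bases between them. Which of these pairs makes up the p53 element of Cdkn1a was not tested. A pair of half-sites with at most 13 bases between them occurred in 24 of 32851 windows in the genome (0.0731%). The windows of Phlda3, Sesn2, Eda2r and Bbc3 held no exact half-site match, which says nothing of near matches or of sites outside them. A match is a description of the letters and not a measurement of binding.

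The first question was whether Trp53 RNA itself differed between the genotypes. Trp53 (chromosome 11, 69580359 to 69591873, plus strand, GRCm38, protein-coding) was at 106, 128 and 99.97 CPM in the WT libraries. It was at 115, 112 and 121 CPM in S1S2 and at 104, 120.3 and 103 CPM in G9Gl libraries. The ranges of all 3 genotypes overlapped. The log2FC against WT was 0.06 in S1S2 cells (SE 0.115, adjusted p = 0.576) and -0.03 in G9Gl cells (SE 0.131, adjusted p = 0.777), and it was -0.09 between G9Gl and S1S2 cells (SE 0.0797, adjusted p = 0.373). A difference in Trp53 RNA was not detected, and the WT libraries, with a spread of 13.5% of their mean, limited the precision. Only 1.09% of the Trp53 75-mers occur in another annotated gene.

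Most of the 9 targets were higher in the mutants than in WT. In S1S2 cells, 6 of the 10 members were higher (Cdkn1a, Mdm2, Ccng1, Phlda3, Zmat3 and Bbc3) and 1 was lower (Sesn2), where 20.3% of all genes tested were higher by the same test and 17.6% were lower. In G9Gl cells, 6 members were higher (Cdkn1a, Mdm2, Ccng1, Zmat3, Eda2r and Bbc3) and 0 were lower, against 19.0% and 16.0% of all genes; the same test gave 0 members lower at an unadjusted p under 0.05, and DESeq2 also called 0 lower. The median log2FC of the 10 members was 0.39 in S1S2 and 0.41 in G9Gl cells, where the median of all genes tested was -0.003 and -0.007. The same 3 WT libraries enter either comparison, which makes the values of the mutants dependent on each other.

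The changes were mostly smaller than the study's cutoff of 2-fold. At 2-fold and the same adjusted p, 0 of 10 members were called in S1S2 cells by edgeR and 0 by DESeq2, 0 also reached 2-fold at an unadjusted p under 0.05, and 7 passed without the fold limit; 1 (Eda2r, higher) was called in G9Gl cells. Of all genes, 4.66% were called higher and 4.34% lower at 2-fold in S1S2 cells, and 6.77% and 3.40% in G9Gl cells. The libraries of mutant and WT did not overlap for 7 of 10 members in each comparison, against 56.0% of all genes in S1S2 and 52.8% in G9Gl cells. Between G9Gl and S1S2 cells, Sesn2 and Eda2r were higher and Ccng1 was lower in G9Gl cells, so 3 members had changed, against backgrounds of 21.6% called higher and 21.1% lower. Of these, Eda2r alone passed 2-fold (7.97% higher and 5.08% lower among all genes), and 4 members did not overlap (60.8% of all genes).

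**Figure D1:**
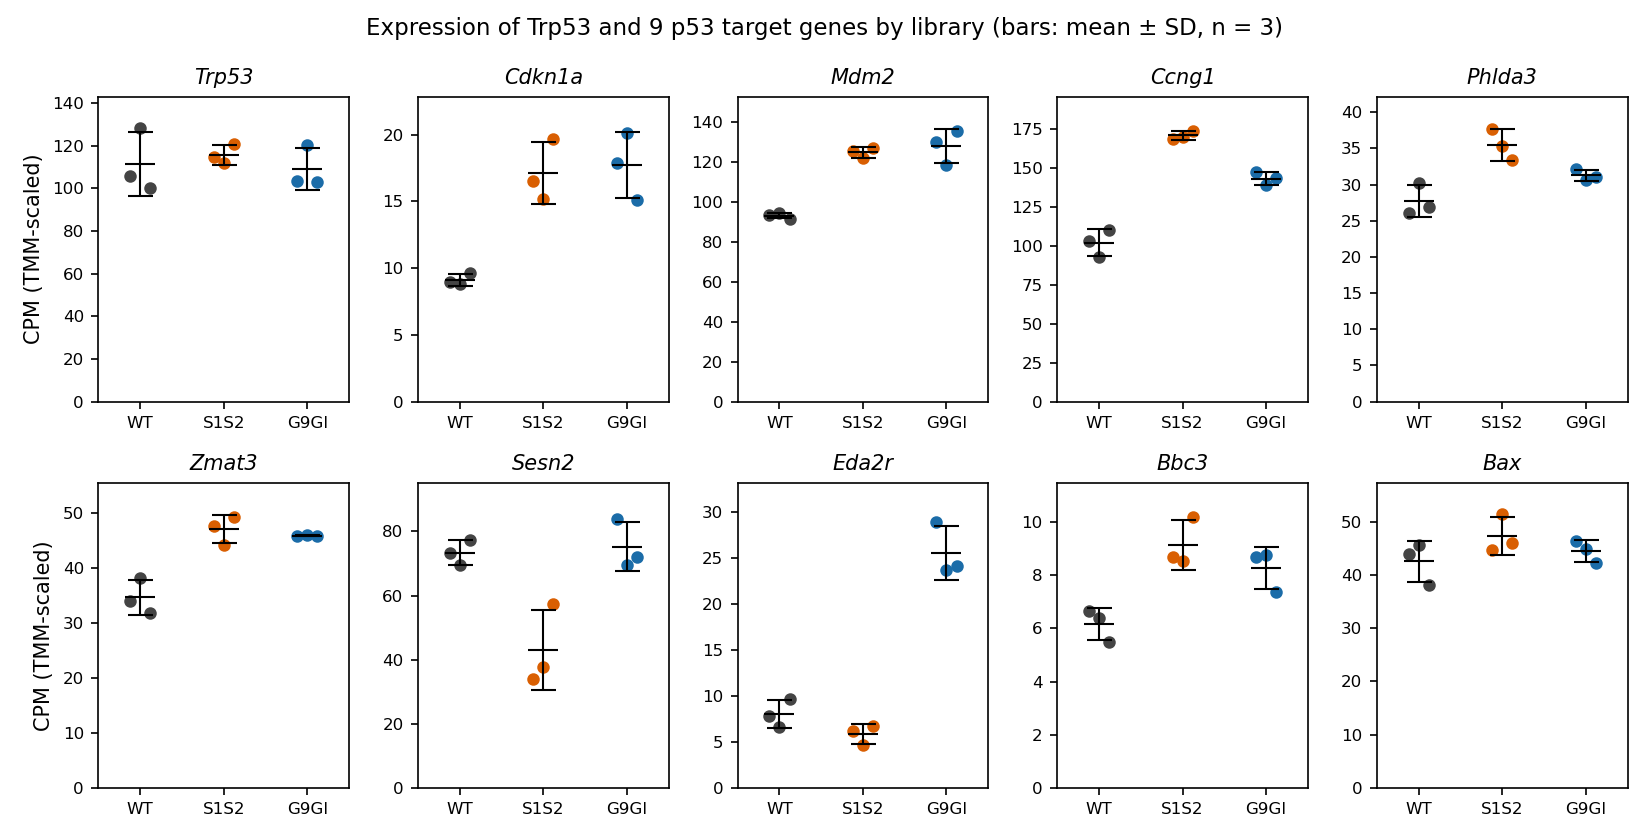
CPM (TMM-scaled, axis from 0) of the 10 members in each library of WT, S1S2 and G9Gl, with points for libraries and bars for the mean ± SD of 3 libraries. Cdkn1a, Mdm2, Ccng1, Zmat3 and Bbc3 lie above all WT libraries in both mutants, Sesn2 is low in S1S2 libraries (34.0 to 57.3 CPM), and Eda2r is high in G9Gl libraries (23.7 to 29.0 CPM).

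Cdkn1a (chromosome 17, 29090976 to 29100727, plus strand) encodes p21, the inhibitor of cyclin-dependent kinases through which p53 halts the cell cycle. It was at 8.98, 8.79 and 9.64 CPM in WT libraries. The S1S2 libraries held 16.5, 15.2 and 19.7 CPM and the G9Gl libraries 17.9, 20.1 and 15.1 CPM. Every mutant library was above every WT library, and the mutants overlapped each other. The mean rose from 9.14 ± 0.442 CPM (SD, n = 3) to 17.1 ± 2.33 in S1S2 (log2FC 0.90, SE 0.118, adjusted p = 3.84e-06) and to 17.7 ± 2.49 in G9Gl cells (0.95, SE 0.125, adjusted p = 1.40e-06). Both lay just under 2-fold, and without G9Gl replicate 3 the G9Gl value was 1.06. The mutants differed by 0.05 (SE 0.162, adjusted p = 0.709), with an SE too wide to show small differences. An overlapping gene on the opposite strand, AC167363.2, shares 273 exon bases with Cdkn1a (7.684% of its exon length), and the strand setting of the counting was not stated.

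Mdm2 (chromosome 10, 117688875 to 117710758, minus strand), the ubiquitin ligase that degrades p53, rose by a smaller amount in both mutants. WT libraries were at 93.6, 94.3 and 91.8 CPM. S1S2 libraries were at 126, 122 and 127 CPM and G9Gl libraries at 130.0, 119 and 136 CPM. The lowest mutant library was well above the highest WT library, and the mutants overlapped. The log2FC was 0.42 in S1S2 (SE 0.021, adjusted p = 1.49e-06) and 0.46 in G9Gl cells (SE 0.0583, adjusted p = 4.45e-07), with a difference between mutants of 0.04 (SE 0.0597, adjusted p = 0.551).

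Ccng1 (chromosome 11, 40748552 to 40755311, minus strand) encodes cyclin G1, which brings the phosphatase PP2A to Mdm2. It was at 103, 93.0 and 110.2 CPM in WT, at 169, 170.1 and 174 CPM in S1S2 and at 147, 139 and 144 CPM in G9Gl libraries. The 3 genotypes did not overlap, with S1S2 highest, G9Gl between and WT lowest. The rise was 0.75 in S1S2 (SE 0.0722, adjusted p = 3.17e-09) and 0.49 in G9Gl cells (SE 0.0748, adjusted p = 5.52e-07) on the log2 scale. G9Gl cells were below S1S2 cells by a tested difference (log2FC -0.25, SE 0.0271, adjusted p = 4.90e-04).

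Among the members linked to cell death, Bbc3 rose in both mutants and Bax did not pass the test in either. Bbc3 (chromosome 7, 16308393 to 16318205, plus strand) encodes Puma, which neutralises the survival proteins of the Bcl-2 family. It was at 6.64, 6.38 and 5.48 CPM in WT, at 8.69, 8.53 and 10.2 CPM in S1S2 and at 8.70, 8.76 and 7.38 CPM in G9Gl libraries. WT overlapped with neither mutant. On the log2 scale the difference was 0.56 in S1S2 (SE 0.117, adjusted p = 6.32e-04) and 0.42 in G9Gl cells (SE 0.116, adjusted p = 0.00579). The G9Gl call was lost without WT replicate 3 (0.35, adjusted p = 0.0243), without G9Gl replicate 1 (0.38, adjusted p = 0.0234) or without G9Gl replicate 2 (0.38, adjusted p = 0.0264). The mutants differed by -0.14 (SE 0.115, adjusted p = 0.319).

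Bax (chromosome 7, 45461697 to 45466898, minus strand), whose protein opens the outer mitochondrial membrane, was at 43.9, 45.5 and 38.2 CPM in WT libraries. S1S2 libraries held 44.7, 51.4 and 46.0 CPM and G9Gl libraries 46.4, 44.9 and 42.3 CPM, and all genotypes overlapped. Its log2FC was 0.16 in S1S2 (SE 0.0986, adjusted p = 0.0696), 0.07 in G9Gl cells (SE 0.0863, adjusted p = 0.461) and -0.09 between mutants (SE 0.0729, adjusted p = 0.286). Gm45808 on the same strand shares 192 exon bases with Bax, 12.183% of its exon length, so part of the Bax value is uncertain.

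Eda2r (chromosome X, 97333840 to 97377216, minus strand), a receptor of the tumour necrosis factor family that binds ectodysplasin A2, differed most between the mutants. WT libraries were at 7.88, 6.64 and 9.67 CPM and S1S2 libraries at 6.16, 4.67 and 6.72 CPM. G9Gl libraries were at 29.0, 23.7 and 24.1 CPM, above every other library. The rise in G9Gl cells was 3.17-fold against WT (log2FC 1.67, SE 0.180, adjusted p = 6.55e-09) and 4.42-fold against S1S2 cells (2.15, SE 0.182, adjusted p = 5.17e-10). In S1S2 cells the value against WT was -0.48 (SE 0.221, adjusted p = 0.0144), which did not pass the test, and the libraries overlapped. It was past the threshold with DESeq2 (adjusted p = 0.00417), with the filter removed (adjusted p = 4.78e-05), with a replicate block (-0.47, adjusted p = 0.00442), without WT replicate 2 (-0.60, adjusted p = 0.00257) and without S1S2 replicate 3 (-0.59, adjusted p = 0.00822).

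Phlda3 (chromosome 1, 135766119 to 135769136, plus strand) encodes a protein that competes with the kinase Akt for membrane lipids. It was at 26.0, 30.2 and 26.8 CPM in WT, at 37.7, 35.3 and 33.4 CPM in S1S2 and at 32.1, 30.7 and 31.0 CPM in G9Gl libraries. The genotypes did not overlap, with G9Gl in between. Phlda3 rose in S1S2 cells (log2FC 0.36, SE 0.0834, adjusted p = 2.49e-04). The G9Gl value was 0.18 (SE 0.069, adjusted p = 0.0372), and it passed without WT replicate 2 (0.24, adjusted p = 0.00611). Tested genes of chromosome 1 had a median log2FC of -0.26 in G9Gl cells, and relative to this median the value of Phlda3 was 0.44. The difference between mutants was -0.18 (SE 0.0549, adjusted p = 0.0286).

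Zmat3 (chromosome 3, 32334792 to 32366014, minus strand), a zinc finger protein that binds RNA, was at 34.1, 38.2 and 31.9 CPM in WT. It was at 47.7, 44.3 and 49.3 CPM in S1S2 and at 45.8, 46.1 and 46.0 CPM in G9Gl libraries. All mutant libraries were above all WT libraries. The fitted log2FC was 0.44 in S1S2 (SE 0.0886, adjusted p = 2.28e-05), 0.40 in G9Gl cells (SE 0.0762, adjusted p = 4.60e-05) and -0.03 between mutants (SE 0.0452, adjusted p = 0.695).

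Sesn2 (chromosome 4, 132492032 to 132510501, minus strand) encodes sestrin 2, which restrains the growth kinase complex mTORC1. It was the 1 member that fell. WT libraries were at 73.2, 69.6 and 77.3 CPM, and G9Gl libraries at 83.8, 69.6 and 72.1 CPM overlapped with them. S1S2 libraries were at 34.0, 37.6 and 57.3 CPM, below all others but with replicate 3 well above the other two. The fold change on the log2 scale was -0.78 in S1S2 (SE 0.234, adjusted p = 7.15e-05), 0.03 in G9Gl cells (SE 0.0934, adjusted p = 0.838) and 0.81 between G9Gl and S1S2 cells (SE 0.244, adjusted p = 3.58e-05). Without S1S2 replicate 3 the S1S2 value was -1.03 and the difference between mutants was 1.06, both past 2-fold.

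**Figure D2:**
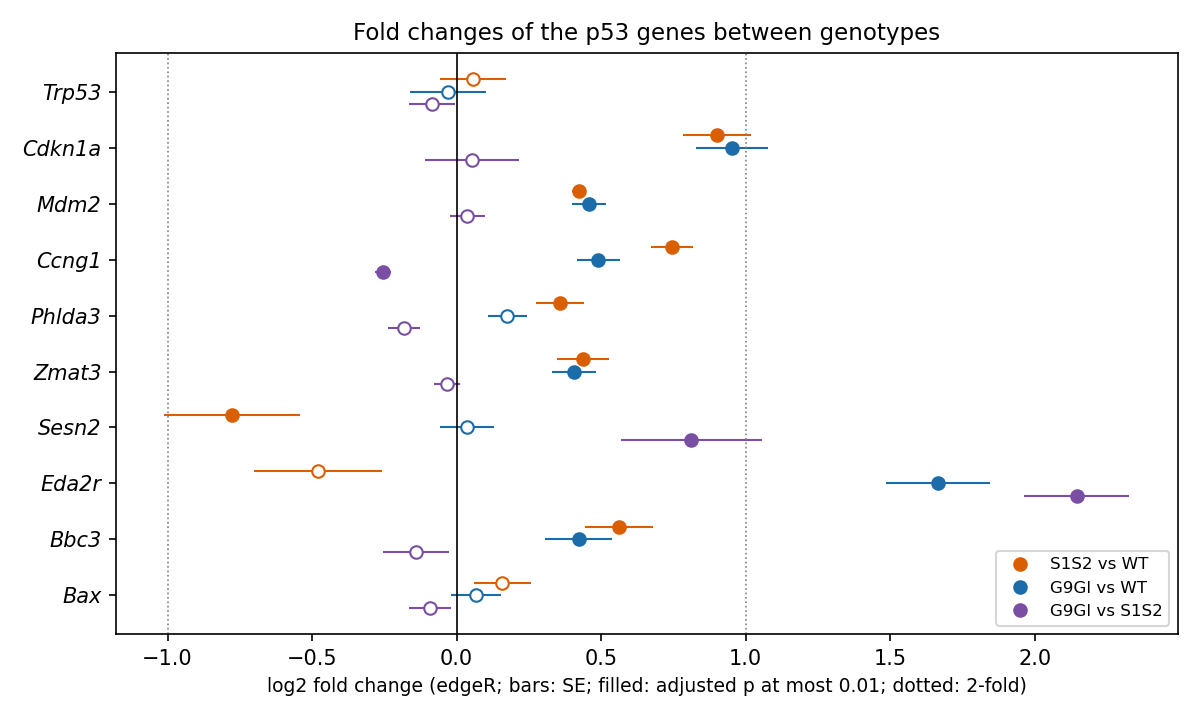
Log2 fold change (x axis) of each member in the 3 comparisons (S1S2 with WT, G9Gl with WT, and G9Gl with S1S2), with bars for the SE and filled points for an adjusted p of at most 0.01; dotted lines mark 2-fold. Eda2r in G9Gl cells (1.67 against WT and 2.15 against S1S2) is the point farthest to the right, and Sesn2 in S1S2 cells (-0.78) is the filled point farthest to the left.

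Levels of different members can be compared only per length of exon. On that scale the WT order was Ccng1 (29.1 CPM per kb), Trp53 (27.5), Bax (27.0), Sesn2 (21.1), Mdm2 (18.3), Phlda3 (17.8), Zmat3 (3.04), Bbc3 (2.90), Cdkn1a (2.57) and Eda2r (1.37). Neighbours in this order whose WT libraries overlapped were Ccng1 and Trp53, Trp53 and Bax, Mdm2 and Phlda3, Zmat3 and Bbc3, and Bbc3 and Cdkn1a. Cdkn1a was thus among the lowest members in WT cells and remained below Phlda3 in the mutants. At 4.82 and 4.99 CPM per kb in S1S2 and G9Gl cells its mean was above those of Zmat3 (4.12 and 4.02) and Bbc3 (4.30 and 3.90), both of which it had been below in WT cells. On this scale the libraries of Cdkn1a overlapped with those of both genes in S1S2 cells and with neither in G9Gl cells. The exon length used is the union of all annotated exons, so a gene that uses short isoforms is understated.

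The genes whose log2 CPM followed a member most closely over the 9 libraries are given as a description, since points of 1 genotype share their clone. For Trp53, the highest Pearson r were those of Mnt (0.96), Ddx23 (0.95), Sf3b4 (0.94), Ltbp3 (0.94) and Furin (0.94). For Cdkn1a they were Mocos (0.99), Trim56 (0.98), Hgs (0.98), Trim7 (0.98) and Nr1d2 (0.97). Trim7 was the steepest of the second group, with means of 1.79 CPM in WT, 5.49 in S1S2 and 5.39 in G9Gl libraries.

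Regulators of p53 were examined next. Of 18 regulators and family members, 17 were tested; in S1S2 cells 4 were higher and 8 lower (median log2FC -0.11), and in G9Gl cells 3 were higher and 7 lower (median -0.05). Over all genes tested, 37.9% changed in S1S2 and 35.0% in G9Gl cells. Mdm4, a relative of Mdm2 that blocks the activation domain of p53, was at 195, 190.0 and 207 CPM in WT, at 150.1, 156 and 152 CPM in S1S2 and at 130.4, 131 and 129 CPM in G9Gl libraries. It fell in S1S2 (log2FC -0.37, SE 0.0408, adjusted p = 1.23e-06), fell further in G9Gl cells (-0.60, SE 0.0375, adjusted p = 2.25e-09), and the mutants differed (-0.23, SE 0.0187, adjusted p = 1.91e-04). Mdm4 lies on chromosome 1, whose medians were -0.13 and -0.26 against WT and -0.14 between mutants, and relative to them its values were -0.24 in S1S2 cells, -0.34 in G9Gl cells and -0.085 between mutants.

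Hipk2, a kinase that phosphorylates p53, rose in both mutants. Its libraries were at 44.2, 48.9 and 36.2 CPM in WT, at 73.5, 68.0 and 67.4 CPM in S1S2 and at 85.0, 96.4 and 97.9 CPM in G9Gl cells, with no overlap among genotypes. The log2FC was 0.69 in S1S2 (SE 0.133, adjusted p = 2.75e-06), 1.11 in G9Gl (SE 0.143, adjusted p = 4.85e-09) and 0.42 between mutants (SE 0.0759, adjusted p = 2.93e-04). Cdkn2a, the gene of Arf and of the kinase inhibitor p16Ink4a, went in opposite directions: 327, 334 and 293 CPM in WT, 262, 246 and 274 in S1S2 and 377, 427 and 337 in G9Gl libraries. Its fall in S1S2 was -0.29 (SE 0.0726, adjusted p = 0.00248; lost without WT replicate 1 or S1S2 replicate 2, with adjusted p = 0.0111 and 0.0181), and its rise in G9Gl was 0.26 (SE 0.114, adjusted p = 0.00549; lost without WT replicate 1 or 3 or G9Gl replicate 1 or 2, and when only the libraries compared were fitted, with adjusted p between 0.0107 and 0.0443). The difference between mutants was 0.54 (SE 0.108, adjusted p = 3.82e-06). Counts per gene do not separate the Arf and p16Ink4a transcripts.

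Atm, the kinase that signals DNA breaks to p53, was at 259, 249.8 and 280.3 CPM in WT, at 239, 244 and 248 CPM in S1S2 and at 254, 232 and 251 CPM in G9Gl libraries. It did not pass the test, with log2FC of -0.11 (SE 0.0515, adjusted p = 0.0678) and -0.10 (SE 0.064, adjusted p = 0.106). Trp63, a family member typical of epithelia, had few reads: 1.02, 0.661 and 0.935 CPM in WT, 0.184, 0 and 0.188 CPM in S1S2 and 1.19, 1.29 and 0.522 CPM in G9Gl libraries. It fell in S1S2 cells, where at most 4 reads were counted per library (log2FC -2.89, SE 0.64, adjusted p = 5.60e-04). This value is imprecise and lay between -3.35 and -2.21 when 1 library was left out. The G9Gl value was 0.19 (SE 0.421, adjusted p = 0.71), and the mutants differed by 3.07 (SE 0.725, adjusted p = 2.28e-04), with 2.40 to 3.53 when 1 library was left out. The limit of the filter was met in WT libraries and also in G9Gl libraries. Trp73, the other family member, was not tested because it had at most 4 reads in any library.

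**Figure D3:**
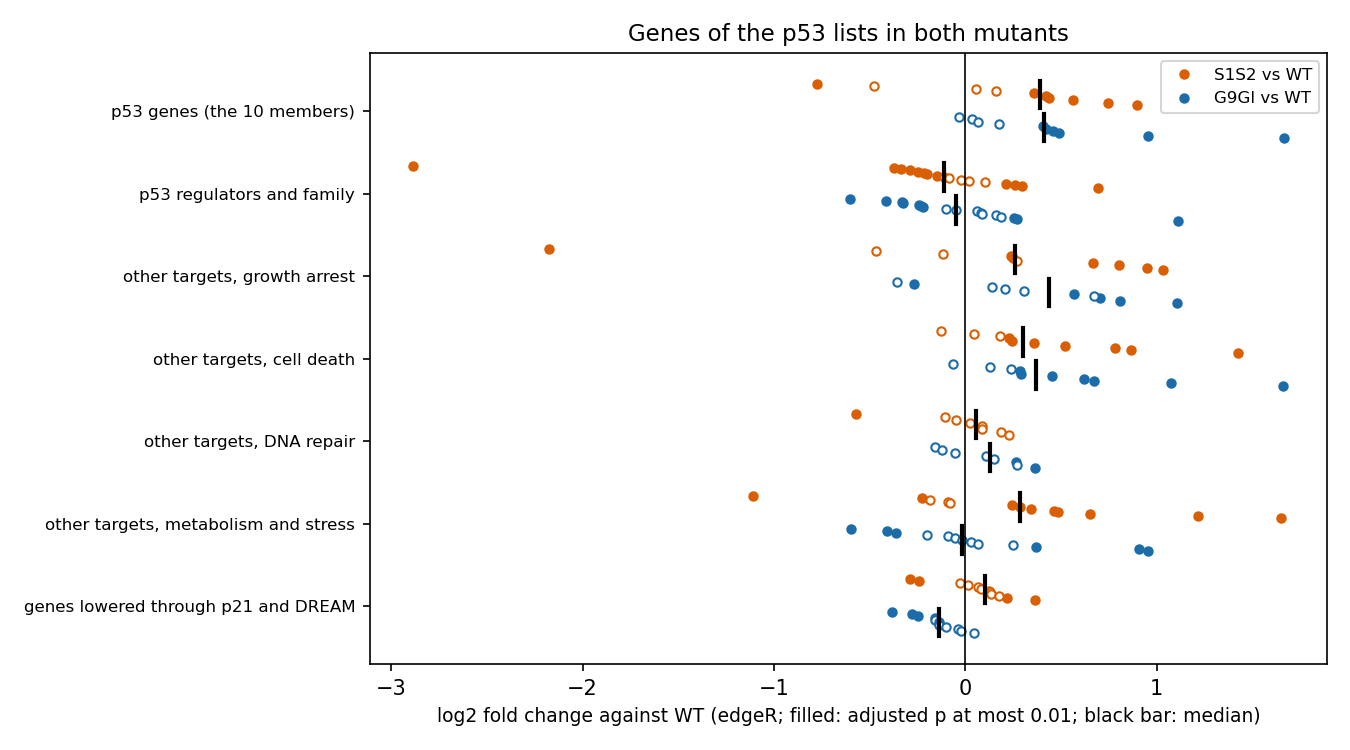
Log2 fold change against WT (x axis) of each tested gene of the 10 members and of 6 further p53 lists (y axis), other than Perp and Rprm, for S1S2 and for G9Gl; filled points had an adjusted p of at most 0.01 and black bars mark list medians. Medians of the cell death list lie at 0.30 and 0.37, and those of the regulators at -0.11 and -0.05.

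Beyond the 10 members, 45 other p53 targets were listed and 43 of them were tested. In S1S2 cells 22 were higher and 4 lower, with a median log2FC of 0.24, and in G9Gl cells 18 were higher and 4 lower, with a median of 0.25. The backgrounds are those given above for the members (20.3% and 17.6%, and 19.0% and 16.0%), and the counts include Perp and Rprm, whose place among the tested genes depended on the mutants; without them 21 and 4 of 41 were higher and lower in S1S2 and 16 and 4 in G9Gl cells, with medians of 0.24 and 0.24. Between G9Gl and S1S2 cells, 11 were higher and 8 lower, with a median of -0.07, near the background of 21.6% higher and 21.1% lower. Without Perp and Rprm, 10 of 41 were higher and 7 lower there, again with a median of -0.07.

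The cell death targets had no lower call in either mutant: 8 of 11 were higher in S1S2 and 8 of 11 in G9Gl cells by edgeR, or 7 of 10 in each without Perp, which passed the filter only through the S1S2 libraries. The backgrounds were 20.3% higher and 17.6% lower in S1S2, and 19.0% and 16.0% in G9Gl cells. At an unadjusted p under 0.05, 1 was lower in S1S2 and 0 in G9Gl cells, and DESeq2 called 0 lower in either. Aen, Bid, Ei24, Fas, Pmaip1, Tnfrsf10b and Trp53inp1 made up these 7 in both. Of the exon bases of Bid, 17.7% overlap Bcl2l13 on the opposite strand. Perp was not called in G9Gl cells without WT replicate 1, WT replicate 3 or G9Gl replicate 1 (adjusted p between 0.0134 and 0.0158). Trp53inp1, a nuclear protein that promotes p53 activity, was at 7.75, 5.95 and 8.57 CPM in WT, at 18.8, 19.4 and 21.9 CPM in S1S2 and at 28.5, 21.9 and 20.2 CPM in G9Gl libraries. Its log2FC was 1.43 in S1S2 (SE 0.170, adjusted p = 1.40e-07) and 1.66 in G9Gl cells (SE 0.216, adjusted p = 1.14e-08). Pmaip1, which encodes the death protein Noxa, was at 13.4, 13.3 and 17.6 CPM in WT, at 24.8, 25.4 and 30.6 CPM in S1S2 and at 33.1, 31.8 and 28.5 CPM in G9Gl libraries. It rose by 0.87 (SE 0.164, adjusted p = 2.90e-06) and 1.08 (SE 0.148, adjusted p = 1.32e-07) on the log2 scale. Mutants overlapped each other and not WT for both genes.

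Fas, a death receptor, was at 2.65, 2.61 and 3.19 CPM in WT, at 4.23, 5.25 and 5.03 CPM in S1S2 and at 4.32, 4.17 and 4.50 CPM in G9Gl libraries. On the log2 scale the difference was 0.78 in S1S2 (SE 0.131, adjusted p = 1.89e-04) and 0.62 in G9Gl cells (SE 0.0965, adjusted p = 0.00141). Fas lies on chromosome 19, whose median log2FC was 0.34 in S1S2 and -0.17 in G9Gl cells, and relative to these its values were 0.45 and 0.79, so that the order of the mutants depended on this choice. Perp, a membrane protein of epithelial junctions, was almost silent in WT cells with at most 4 reads per library. It was at 2.67, 1.57 and 1.98 CPM in S1S2 and at 0.491, 0.359 and 0.294 CPM in G9Gl libraries. Because its place among the tested genes depended on its high value in S1S2 cells, no fitted fold change is given for Perp. Of 6 epithelial markers, Cdh1 and Krt5 were at or under 3 reads everywhere, and the summed level of all 6 was 0.298 to 0.548 CPM in WT, 4.70 to 5.60 in S1S2 and 4.21 to 5.39 in G9Gl libraries. The sum was carried by a different gene in each mutant: Krt8 averaged 4.68 CPM in S1S2 and 0.221 in G9Gl libraries, Krt14 averaged 0.0585 and 4.39 CPM, and Epcam was highest in WT (0.266, against 0.198 and 0.0683 CPM). Their part in the values of Perp, Sfn and Trp63 was not tested.

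Of 11 growth arrest targets, 6 were higher and 1 lower in S1S2 cells, and 5 were higher and 1 lower in G9Gl cells (4 higher without Rprm, which passed the filter only through G9Gl). The backgrounds were 20.3% higher and 17.6% lower in S1S2, and 19.0% and 16.0% in G9Gl cells. Btg2, an antiproliferative cofactor of mRNA decay, was at 11.2, 9.88 and 11.1 CPM in WT, at 23.1, 19.7 and 23.2 CPM in S1S2 and at 16.0, 16.6 and 15.3 CPM in G9Gl libraries. It rose in S1S2 (log2FC 1.03, SE 0.0952, adjusted p = 1.91e-08) and less in G9Gl cells (0.57, SE 0.0658, adjusted p = 2.47e-05), with a tested difference of -0.46 (SE 0.0835, adjusted p = 1.16e-04). Sfn, the gene of 14-3-3 sigma, which holds back entry into mitosis, had the other order: 2.25, 2.71 and 2.22 CPM in WT, 3.03, 2.41 and 3.29 CPM in S1S2 and 4.49, 5.64 and 5.35 CPM in G9Gl libraries. Its value was 0.27 in S1S2 (SE 0.160, adjusted p = 0.209) and it rose by 1.11 in G9Gl cells (SE 0.133, adjusted p = 1.32e-05), a difference of 0.84 (SE 0.164, adjusted p = 2.28e-04).

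Gadd45a, a stress protein that inhibits Cdk1, was at 21.5, 17.0 and 28.5 CPM in WT, at 12.5, 13.8 and 22.5 CPM in S1S2 and at 47.3, 29.2 and 32.9 CPM in G9Gl libraries. S1S2 overlapped with WT and G9Gl did not. Its value was -0.47 in S1S2 (SE 0.337, adjusted p = 0.0775; past the threshold with the filter removed, at 7.73e-09, and without S1S2 replicate 3, at 0.00602) and 0.71 in G9Gl (SE 0.299, adjusted p = 0.00606), and the mutants differed by 1.17 (SE 0.333, adjusted p = 1.11e-04). The G9Gl call was lost with DESeq2 (adjusted p = 0.0724) and without WT replicate 1, WT replicate 2 or G9Gl replicate 1 (adjusted p between 0.0243 and 0.0423). Of the exon bases of Gadd45a, 19.1% overlap E230016M11Rik on the opposite strand.

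A pair of arrest targets had few reads in 1 or more genotypes. Rprm, which encodes the arrest protein Reprimo, had 0 reads in all S1S2 libraries and at most 4 in WT libraries, against 35, 51 and 48 reads in G9Gl libraries (1.23, 1.83 and 1.57 CPM). It passed the filter only through the G9Gl libraries. No fitted fold change is given for Rprm, because its place among the tested genes depended on its high value in G9Gl cells. Set against the floor of 3 reads in the smallest S1S2 library, 0.141 CPM, its G9Gl mean was at least 10.9-fold higher than in S1S2 cells. For the same reason this bound only describes these libraries and is no support for a difference. Trp53cor1, the long noncoding RNA lincRNA-p21 next to Cdkn1a, was at 2.31, 1.49 and 2.96 CPM in WT, at 0.460, 0.510 and 0.517 CPM in S1S2 and at 2.67, 1.04 and 1.57 CPM in G9Gl libraries. It fell in S1S2 cells (log2FC -2.17, SE 0.285, adjusted p = 1.13e-04), in which Cdkn1a rose, and its G9Gl value was -0.36 (SE 0.469, adjusted p = 0.328), with a difference between mutants of 1.82 (SE 0.379, adjusted p = 7.36e-04). Of its 75-mers, 35.56% occur in another annotated gene, AC167363.1 among them, so its value is uncertain.

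Of 13 tested metabolism and stress targets, 8 were higher and 2 lower in S1S2 cells, and 3 were higher and 3 lower in G9Gl cells. Of all genes, 20.3% and 17.6% were so called in S1S2 and 19.0% and 16.0% in G9Gl cells, so the G9Gl counts were near the background; Ddit4l and Gdf15 had too few reads to test. Epha2, a receptor tyrosine kinase, had the smallest adjusted p of the named genes in S1S2 cells. It was at 56.7, 60.7 and 49.4 CPM in WT, at 185, 173 and 165 CPM in S1S2 and at 105, 112 and 107 CPM in G9Gl libraries, with no overlap among genotypes. Its log2FC was 1.65 in S1S2 (SE 0.0991, adjusted p = 1.10e-12), 0.96 in G9Gl (SE 0.0915, adjusted p = 1.03e-09) and -0.69 between mutants (SE 0.0536, adjusted p = 3.65e-08). Dcxr, a reductase of sugars, was at 2.12, 2.68 and 2.32 CPM in WT, at 5.52, 5.50 and 5.50 CPM in S1S2 and at 5.44, 3.99 and 3.95 CPM in G9Gl libraries. It rose by 1.22 (SE 0.0948, adjusted p = 5.23e-06) and 0.91 (SE 0.177, adjusted p = 1.17e-04) on the log2 scale.

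Ddit4, which like Sesn2 restrains mTORC1, also fell in S1S2 cells. It was at 75.3, 75.6 and 75.7 CPM in WT, at 29.8, 30.9 and 44.6 CPM in S1S2 and at 55.7, 66.0 and 49.1 CPM in G9Gl libraries. S1S2 replicate 3 was again the highest S1S2 library. The fitted log2FC was -1.11 in S1S2 (SE 0.185, adjusted p = 4.80e-07), -0.41 in G9Gl (SE 0.123, adjusted p = 0.00564) and 0.70 between mutants (SE 0.222, adjusted p = 7.21e-05). The G9Gl call was lost with DESeq2 (adjusted p = 0.0713) and without WT replicate 1, G9Gl replicate 1 or G9Gl replicate 3 (adjusted p between 0.0159 and 0.0437).

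Pltp, the phospholipid transfer protein, moved in opposite directions: 19.3, 17.4 and 18.5 CPM in WT, 25.5, 24.3 and 27.5 CPM in S1S2 and 13.5, 11.7 and 11.3 CPM in G9Gl libraries. It rose by 0.49 in S1S2 (SE 0.0671, adjusted p = 5.60e-05) and fell by 0.60 in G9Gl cells (SE 0.091, adjusted p = 1.07e-05) on the log2 scale, a difference of -1.08 (SE 0.0949, adjusted p = 4.43e-09). Of its exon bases, 19.3% overlap Ctsa on the opposite strand. Sesn1, the relative of Sesn2, was at 24.0, 23.9 and 26.6 CPM in WT, at 25.2, 22.9 and 22.5 CPM in S1S2 and at 24.2, 22.8 and 23.0 CPM in G9Gl libraries. All genotypes overlapped, with log2FC of -0.08 (SE 0.0716, adjusted p = 0.358) and -0.09 (SE 0.057, adjusted p = 0.287) against WT. Of 8 DNA repair targets, 0 were higher and 1 (Ddb2) was lower in S1S2 cells by edgeR, and 2 (Polk and Rrm2b) were higher and 0 lower in G9Gl cells. DESeq2 also gave 0 for both counts of 0, whereas at an unadjusted p under 0.05 in edgeR 1 was higher in S1S2 and 2 were lower in G9Gl cells. These shares of 8 genes did not exceed the background in S1S2 cells (20.3% higher and 17.6% lower of all genes) and lay near it in G9Gl cells (19.0% and 16.0%). Of the exon bases of Ddb2, 23.8% overlap Acp2 on the opposite strand.

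**Figure D4:**
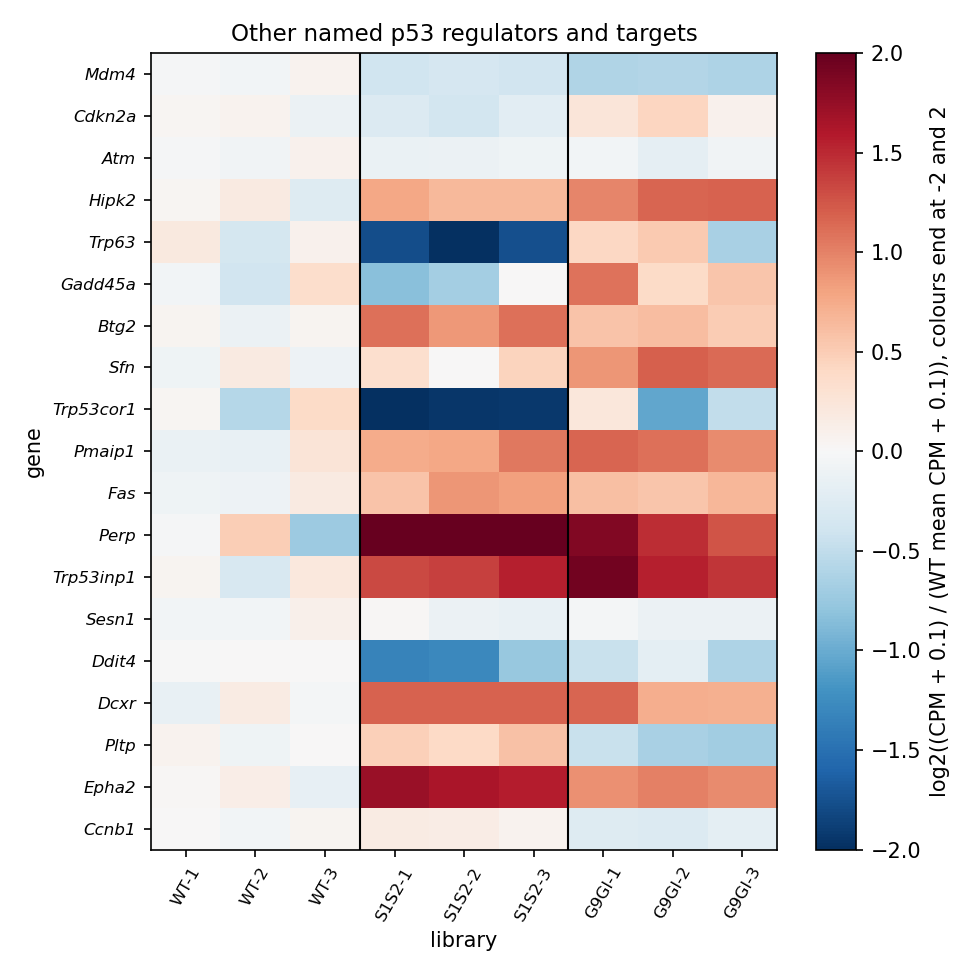
Level of 19 named p53 regulators and targets outside the 10 members (rows) in each library (columns), as log2 of CPM plus 0.1 over the WT mean plus 0.1, with colours ending at -2 and 2. Mdm4 is below WT in all 6 mutant libraries, Hipk2, Trp53inp1, Pmaip1, Fas and Epha2 are above WT in all 6, and Ddit4 is lowest in S1S2 libraries 1 and 2 (29.8 and 30.9 CPM).

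The last list holds 12 cell division genes that p53 is known to lower through p21 and the DREAM repressor complex. In S1S2 cells 2 of them (Cdc20 and Birc5) were higher and 2 (Cdc25c and Bub1b) lower, with a median log2FC of 0.10 (background 20.3% higher and 17.6% lower). DESeq2 called 3 higher and 2 lower. In G9Gl cells 0 were higher by edgeR and 4 (Ccnb1, Ccna2, Cdc25c and Aurka) lower, with a median of -0.14 (background 19.0% higher and 16.0% lower); 0 were higher at an unadjusted p under 0.05 and 0 by DESeq2. Between the mutants 7 were lower and 0 higher in G9Gl cells by edgeR, with a median of -0.24, against 21.6% of all genes higher and 21.1% lower; 1 was higher at an unadjusted p under 0.05, and 1 by DESeq2. The value of Cdkn1a RNA in the same contrast was 0.05. The p21 protein was not analysed, and its part in these counts was not tested. Ccnb1, the mitotic cyclin B1, was at 257, 246 and 267 CPM in WT, at 288, 285 and 268 CPM in S1S2 and at 214, 213 and 223 CPM in G9Gl libraries. Its log2FC was 0.13 in S1S2 (SE 0.0458, adjusted p = 0.0219), -0.24 in G9Gl (SE 0.0393, adjusted p = 1.60e-04) and -0.37 between mutants (SE 0.038, adjusted p = 1.25e-06). Of its 75-mers, 18.9% occur in other annotated genes, pseudogenes of Ccnb1 among them. Genes on the opposite strand overlap 12.7% of the exon bases of Cdc25c (Gm3550) and 12.5% of those of Ccna2 (Exosc9).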

How the data were processed

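Stranded total RNA libraries of WT, S1S2 and G9Gl MEFs, 3 per genotype, were analysed from the deposited table. It holds the read counts the authors deposited for each Ensembl gene, without normalization. According to the methods and processing notes, the authors trimmed 75 bp paired-end reads, aligned them to GRCm38 with STAR 2.5.2b under settings that keep multiply aligned reads, and counted them with TEtranscripts; the notes also name DESeq2. The annotation release and the strand setting are not given in the sources used here, so values of genes that share sequence or overlap are uncertain. Symbols and positions came from GENCODE M21, which matched 47310 of 47937 identifiers.

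Counts were analysed with edgeR 4.0.16 (quasi-likelihood F test, R 4.3.3) after TMM scaling (factors 0.981 to 1.03) and filterByExpr, with all 9 libraries in 1 fit and no covariate. The contrasts were each mutant against WT and G9Gl against S1S2. Each SE was computed from the replicate spread of log2 CPM (prior count 2), and SD are over 3 libraries. A floor of 3 reads corresponds to 0.0923 to 0.141 CPM; floors cover counting error only, since reads lacking molecular identifiers may be copies of 1 molecule. Nothing in the labels says that replicates were separate derivations, so p-values measure the spread between these cultures. In data simulated for S1S2 against WT over 15540 genes, 68% of genes changed by 2-fold and 64% of genes changed by 1.5-fold were called, as were 0.0332% of unchanged genes.

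The members, the 6 further lists and the genes named were chosen with earlier results of these data known. Named genes are the 10 members, genes of the other lists changed at least 2-fold in any contrast, 9 genes named in every case (Mdm4, Cdkn2a, Atm, Trp53inp1, Gadd45a, Pmaip1, Fas, Sesn1 and Ccnb1), and the 5 genes most like Trp53 and like Cdkn1a over the libraries; genes given only as members of a count of calls were named after their values were seen. Alternatives were DESeq2 1.42.0, other scalings, filters and thresholds, glmTreat, only the libraries compared, a replicate block, removal of chromosome medians and leaving out each library.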

Additional observations from a re-analysis of the deposited data

Results flagged for a closer look

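The effects of both mutants were compared directly, in the G9Gl against S1S2 contrast of the edgeR fit, and 15 of 28 named genes had changed there (adjusted p of at most 0.01), where 42.6% of all genes tested had changed. Some of these genes were named because they changed at least 2-fold in this or another contrast, so their number is no support for a difference. Among the members these were Ccng1 (log2 fold change -0.25), Sesn2 (0.81) and Eda2r (2.15). Rprm and Perp were left out of this count, since each met the limit of the filter in only 1 of the 3 genotypes. Among regulators and family they were Mdm4 (-0.23, or -0.085 relative to the median of chromosome 1), Cdkn2a (0.54), Hipk2 (0.42) and Trp63 (3.07, imprecise because S1S2 libraries had at most 4 reads). Among growth arrest targets they were Gadd45a (1.17), Btg2 (-0.46), Sfn (0.84) and Trp53cor1 (1.82). Among the others they were Ddit4 (0.70), Pltp (-1.08), Epha2 (-0.69) and Ccnb1 (-0.37). Cdkn2a and Pltp had changed in opposite directions against WT. Groups of 3 libraries are too small for a formal test for single outlying libraries, and fits that left out 1 library are given below.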

How the results depend on the processing

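The number of members changed was 7 in S1S2 against WT, 6 in G9Gl against WT and 3 between mutants; it was 8, 6 and 3 with DESeq2, 8, 7 and 4 at an adjusted p of at most 0.05, and 5, 4 and 2 with glmTreat against a fold change of 1.2. Leaving out 1 library gave 7 to 8, 5 to 7 and 3 to 3 members. At 2-fold it gave 0 to 1 (Sesn2 without S1S2 replicate 3), 1 to 2 (Cdkn1a without G9Gl replicate 3) and 1 to 2 (Sesn2 without S1S2 replicate 3). With glmTreat, 2683, 2666 and 3595 of all genes and 16, 15 and 21 genes of the other p53 lists were called, in place of 5895, 5438 and 6622 and of 42, 36 and 35; this test asks for a larger change by construction. Other signs turned only for values that did not pass the test. When 1 library was left out, these ranged from -0.019 to 0.17 (Trp53, S1S2 against WT), -0.11 to 0.084 (Trp53, G9Gl against WT), -0.047 to 0.16 (Cdkn1a between mutants), -0.000445 to 0.089 (Mdm2 between mutants), -0.050 to 0.087 (Sesn2, G9Gl against WT), -0.0036 to 0.12 (Bax, G9Gl against WT), -0.012 to 0.052 (Atm between mutants), -0.037 to 0.51 (Trp63, G9Gl against WT) and -0.043 to 0.037 (Sesn1 between mutants, also 0.0025 without a filter and 0.0021 with at least 10 reads in every library); the cause was not tested. Subtracting chromosome medians moved 21 of 90 log2 fold changes of named genes by more than the replicate spread. It turned the sign of 0 called values and of 6 that had not passed, Sesn1 in S1S2 cells (to 0.075) and, between mutants, Cdkn1a (-0.070), Mdm2 (-0.16), Zmat3 (0.087), Atm (-0.087) and Fas (0.35). Without a composition factor the share of increases among changed genes was 49.1% (S1S2) and 48.6% (G9Gl), against 53.6% and 54.2%. Same-numbered replicates did not deviate together (correlations -0.0686 to 0.124), so the numbers were not taken as a pairing; with the replicate block 8, 6 and 3 members changed, the added one being Eda2r in S1S2 cells (log2 fold change -0.47, adjusted p = 0.00442), and 43, 36 and 35 genes of the other lists. Depth limited Rprm, Perp and Trp63, which had at most 4 reads per library in at least 1 genotype.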
